A study of Mus musculus with 4 samples.

Results

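Cxcl13, Cxcr5, Ccr7 and S1pr1 are 4 of the 27998 genes counted in single CD45+ cells of the mouse nasal mucosa, and each was found once by its symbol in the gene list of all 4 libraries. They were followed through every cell class of the mucosa, and Cxcl13 also through the states of its macrophages. Together they cover the routes by which lymphocytes and dendritic cells enter, organise in and leave lymphoid tissue.

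CXCL13 is the chemokine that draws B cells and follicular helper T cells into follicles through its receptor CXCR5, and in mucosal inflammation it is known for the organisation of ectopic lymphoid tissue. CCR7 is the receptor for CCL19 and CCL21 and takes naive and central memory T cells, B cells and matured dendritic cells to the T cell zone of lymph nodes. S1PR1 senses the lipid sphingosine-1-phosphate (S1P), which is abundant in blood and lymph, and lets lymphocytes leave tissue. KLF2 drives its transcription, and CD69 removes the receptor from the cell surface.

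The mice were C57BL/6, aged 8 weeks, and gave 1 library to each of 4 groups, which the labels call Vehicle, Ribavirin, Vehicle-OVA and Ribavirin-OVA. The antigen OVA is the egg protein ovalbumin, with which the mice of the study were sensitised and then challenged through the nose as a model of allergic rhinitis, and ribavirin is an antiviral nucleoside analogue. Vehicle and Ribavirin are the groups without OVA in their labels. The number of mice behind a library and the schedule of ribavirin are not given in the sources used here, and the sources name both magnetic and fluorescence-activated sorting for CD45. With 1 library in each group there was no replicate and no test, and no p-value is given. The intervals are 95% intervals for counting error alone, so a difference between mice, dissections or captures cannot be told apart from a difference between treatments.

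The deposited matrices held 28277 cells in Vehicle, 19143 in Vehicle-OVA, 21401 in Ribavirin and 10311 in Ribavirin-OVA, and between 91742940 and 171873110 unique molecular identifiers (UMIs, 1 per captured transcript). Wherever 4 values stand without names they follow the order of that sentence, with each OVA library after its partner. After filters on depth, mitochondrial share and doublets, 24102, 17189, 19371 and 8730 cells were kept, with a median of 3384 to 5048.5 UMIs per cell. A total of 499 cell barcodes occurred in more than 1 library. Clustering, from which the 4 genes were left out, gave 45 clusters and 14 named classes. Ptprc, which encodes CD45, was at 747 to 1184 CPM (the UMIs of a gene scaled to the UMI total of the same cells), and epithelial-like and olfactory neuron-like cells with an unnamed cluster of non-leukocytes made up 1.29% to 6.08% of a library. That unnamed cluster, cluster 27, led with Aqp1, Col1a2 and Cldn5, genes of red cells, stroma and endothelium.

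Among the CD45+ cells, most Cxcl13 UMIs lay in macrophage-like cells. These cells held 7329 of 7531 Cxcl13 UMIs in Vehicle, 368 of 387 in Vehicle-OVA, 4855 of 4992 in Ribavirin and 68 of 78 in Ribavirin-OVA. The Cxcl13 level in these cells was 163.5 CPM in Vehicle (interval 159.8 to 167.3), 14.4 CPM in Vehicle-OVA (13.01 to 16.0), 141.4 CPM in Ribavirin (137.5 to 145.5) and 3.59 CPM in Ribavirin-OVA (2.79 to 4.56). Both libraries without OVA were high and both OVA libraries low, with no overlap of the intervals.

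The next class in Vehicle was plasma cell-like at 5.47 CPM, where 66 of 77 UMIs came from 1 cell, and the macrophage-like level was 29.9-fold higher (23.9 to 37.9). In Vehicle-OVA the next class was cDC2-like, the conventional dendritic cells, at 1.41 CPM, 10.3-fold below macrophages (3.97 to 37.8). In Ribavirin it was migratory DC-like at 4.42 CPM, 32.0-fold below (12.5 to 117.4). In Ribavirin-OVA, ILC2-like cells at 2.44 CPM were within counting error of the macrophages (1.48-fold, 0.602 to 4.69). Neutrophil-like cells, taken here as a background for free RNA, read 2.84, 0.22, 2.24 and 0.109 CPM, ranked as the macrophage levels were. B cell-like cells held 1 Cxcl13 UMI in Vehicle and 0 in the other libraries, where 3 counts would be 2.11 to 3.99 CPM.

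**Figure D1:**
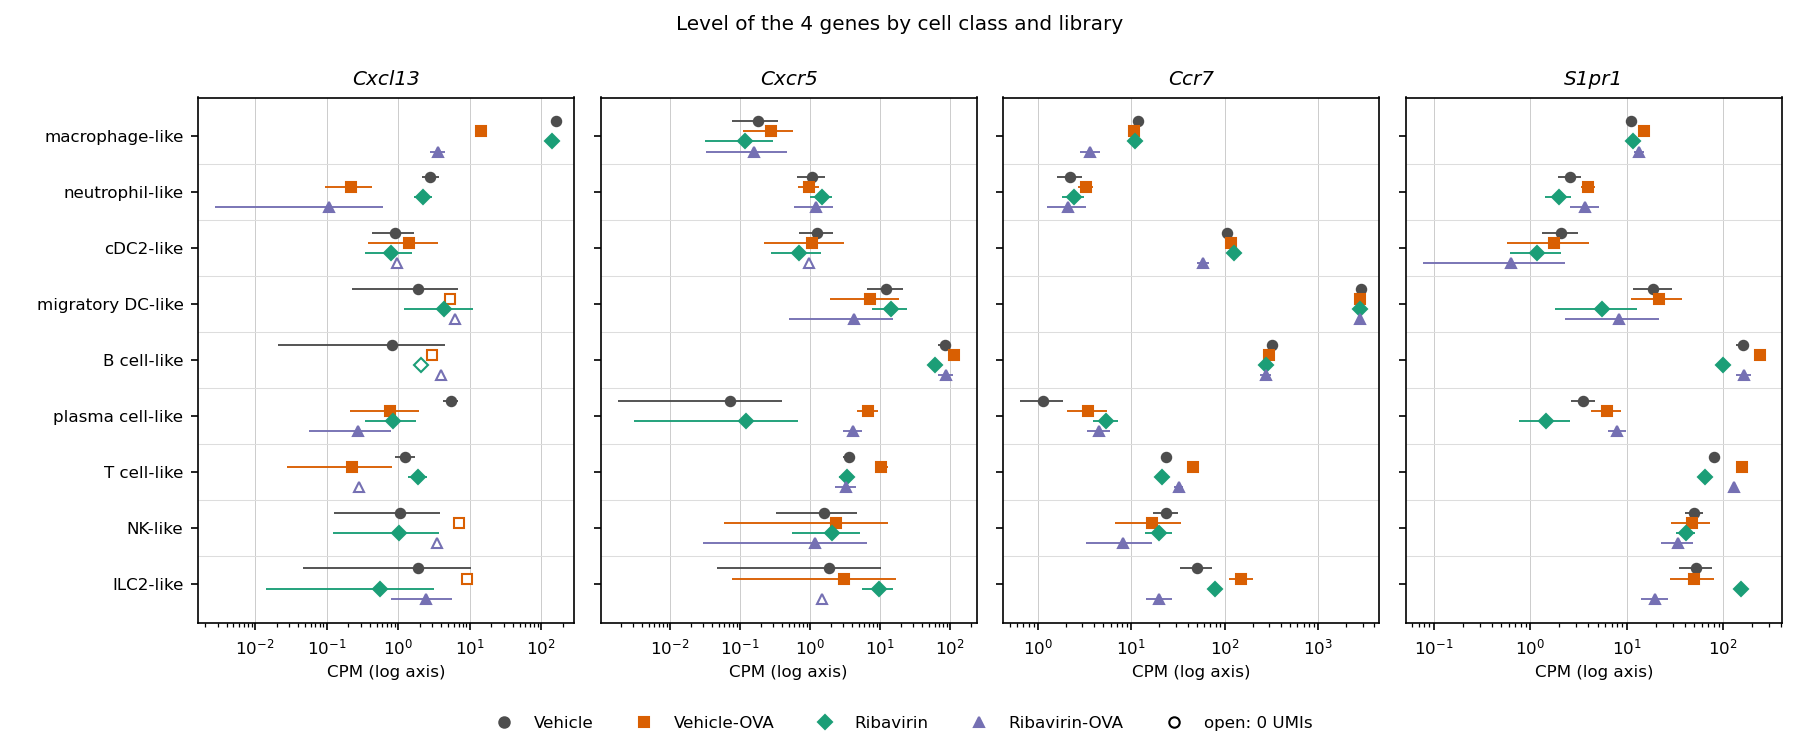
Level of each gene in CPM (log axis) in 9 cell classes, 1 symbol per library with its 95% Poisson interval; an open symbol stands for 0 UMIs and is drawn at the level of 3 counts. Cxcl13 is highest in macrophage-like cells, Cxcr5 in B cell-like cells, Ccr7 in migratory DC-like cells, and S1pr1 is spread over T, B, NK and ILC2-like cells.

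A small minority of macrophages carried the transcript. Of macrophage-like cells, 195 of 4757 held at least 1 Cxcl13 UMI in Vehicle (4.10%), 22 of 2662 in Vehicle-OVA (0.826%), 103 of 3399 in Ribavirin (3.03%) and 11 of 1780 in Ribavirin-OVA (0.618%). Thinned to 1000 UMIs per cell, with shallower cells left out, the shares were 2.11%, 0.499%, 1.77% and 0.303%. In neutrophil-like cells the unthinned shares were 0.479%, 0.063%, 0.376% and 0.0384%, at median depths of 2312 to 2954 UMIs against 8571.5 to 9666 in macrophages.

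Within the positive cells the distribution was steep. Cells with 10 or more Cxcl13 UMIs, called Cxcl13-rich here, numbered 78 in Vehicle, 6 in Vehicle-OVA, 46 in Ribavirin and 4 in Ribavirin-OVA. They were 1.64% (exact binomial interval 1.30% to 2.04%), 0.225% (0.0828% to 0.490%), 1.35% (0.992% to 1.80%) and 0.225% (0.0613% to 0.574%) of macrophages, and held 96.6%, 89.7%, 97.1% and 83.8% of their Cxcl13 UMIs. The most loaded cell held 594 UMIs in Vehicle, 136 in Vehicle-OVA, 626 in Ribavirin and 17 in Ribavirin-OVA. The 5 most loaded cells held 26.1% of the UMIs in Vehicle and 37.2% in Ribavirin, but 84.2% in Vehicle-OVA and 89.7% in Ribavirin-OVA. A handful of cells carried the level of each OVA library, which the counting interval does not cover.

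**Figure D2:**
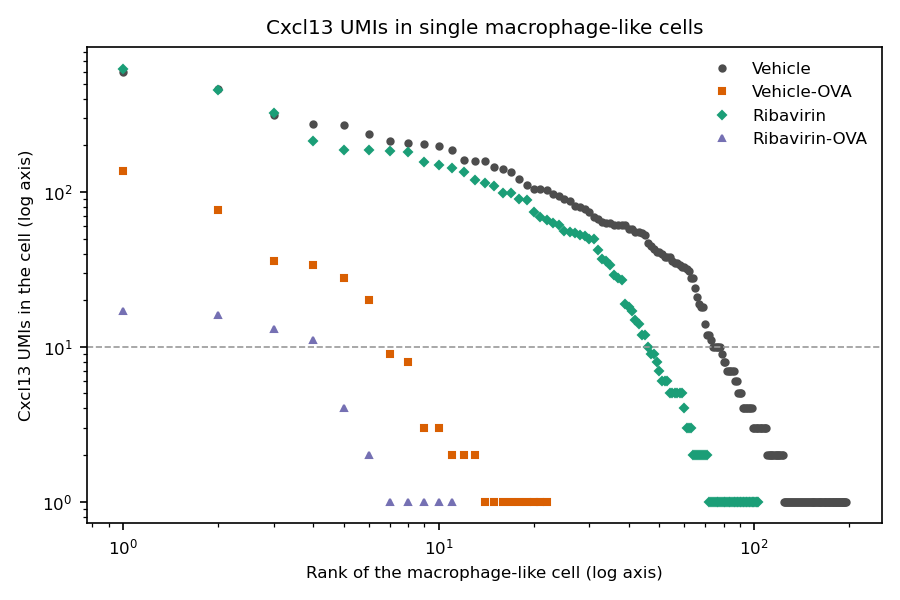
Cxcl13 UMIs in each macrophage-like cell with at least 1 (log axis) against the rank of the cell within its library (log axis), with a dashed line at 10 UMIs. The Vehicle and Ribavirin curves reach 594 and 626 UMIs and hold 78 and 46 cells at or above the line, and the OVA curves hold 6 and 4.

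Reclustering of the macrophage-like cells without the 4 genes gave 13 states. State 6 was called C1q resident-like from its markers, which include Folr2, Cd163 and Gas6, and led with Vcam1, Cd209f, Pla2g2d and Lyve1. It was 5.41% of macrophages and held 53.9% of their Cxcl13 UMIs. The state 6 level was 880.9 CPM in Vehicle (853.7 to 908.7; 429 cells), 783.7 CPM in Vehicle-OVA (687.8 to 889.1; 26 cells) and 1056 CPM in Ribavirin (1016 to 1098; 213 cells). Its 14 cells in Ribavirin-OVA held 0 UMIs, which allows up to 21.2 CPM at 3 counts, or 21.4% of cells. Over the other macrophages of the same library the Cxcl13 level of state 6 was 10.6-fold in Vehicle, 155-fold in Vehicle-OVA and 14.9-fold in Ribavirin.

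Cxcl13 was also found in other macrophage states. State 4, unnamed and led by Fcrls, Hpgd, Cd4 and Cp, read 299 CPM in Vehicle, 119 in Vehicle-OVA, 252 in Ribavirin and 32.0 in Ribavirin-OVA. State 7, unnamed and led by Il2ra and Spn, read 295 CPM in Vehicle and 238 CPM in Ribavirin, and its 22 and 11 cells in the OVA libraries held 0 UMIs. State 9, microglia-like with Siglech and Sall1 among its leading genes, read 114 CPM in Vehicle, 8.81 in Ribavirin and 61.8 in Ribavirin-OVA, where 2 of the 4 Cxcl13-rich cells lay, and 0 UMIs in Vehicle-OVA. A shallow unnamed state with a median of 1551 UMIs, which led with the stromal genes Dcn and Mgp, read 398 CPM in Vehicle, where it held 1.92% of the UMIs, then 24.5, 133.7 and 1.65 CPM. State 10, also microglia-like and shallow, held 3 UMIs in 15 cells of Vehicle-OVA, 4 in 6 cells of Ribavirin-OVA and 0 in the other libraries.

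The remaining macrophages were low. The alternatively activated-like states, rich in Arg1, Ccl24 and Retnla, made up most macrophages of the OVA libraries, where state 1 read 0.928 CPM in Vehicle-OVA (37.9% of macrophages) and 1.03 CPM in Ribavirin-OVA (61.9%). State 3, also alternatively activated-like, was 34.5% of macrophages in Vehicle-OVA and read 7.62 CPM, from 79 UMIs in 3 cells. State 2, inflammatory-like, read 3.30 CPM in Vehicle and 4.57 CPM in Ribavirin. State 0, unnamed and led by Ly6i and Lyz1, was the most numerous state of Vehicle (42.9%) and Ribavirin (36.7%) and read 28.4 and 5.22 CPM.

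**Figure D3:**
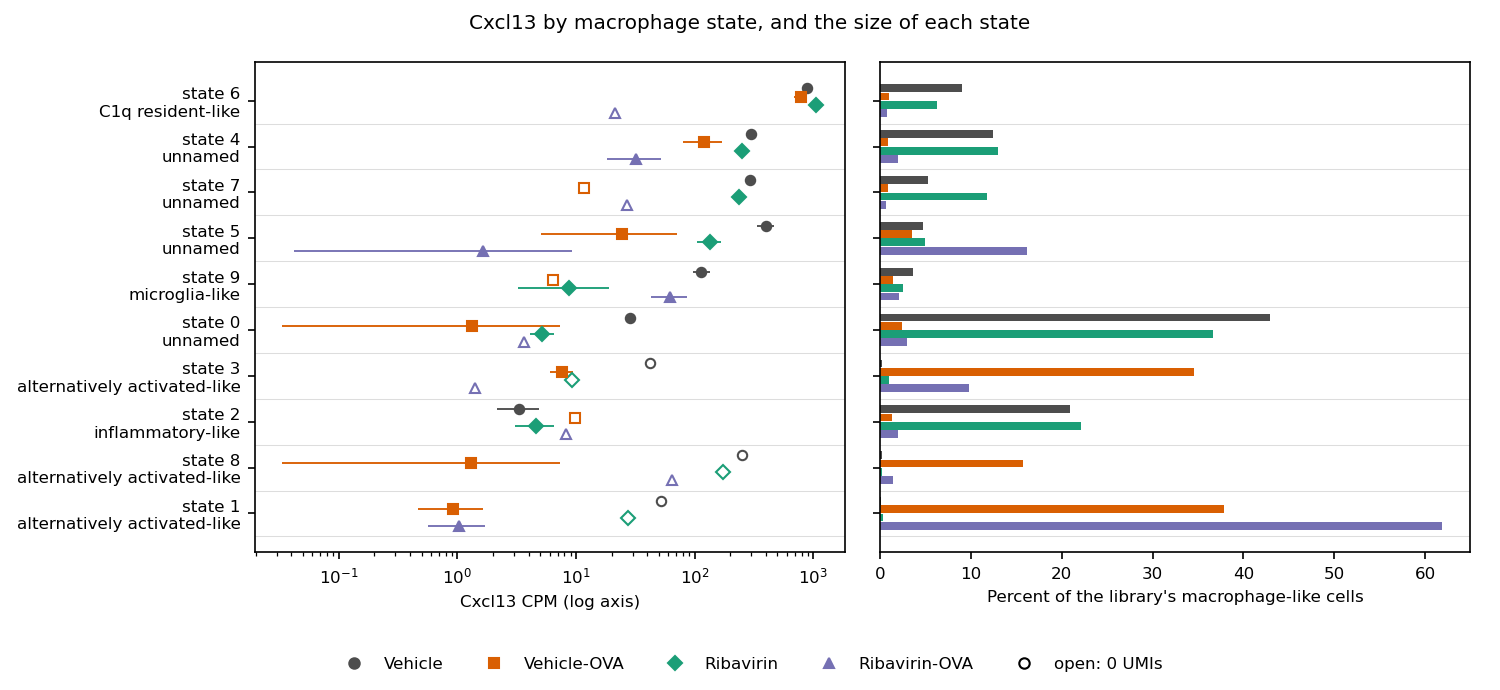
Left, Cxcl13 level in CPM (log axis) by macrophage state and library with 95% Poisson intervals, open symbols for 0 UMIs drawn at the level of 3 counts. Right, the percentage of each library's macrophage-like cells in the state: state 6 is 9.02% in Vehicle and 6.27% in Ribavirin against 0.977% and 0.787% in the OVA libraries.

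The sizes of the states also differed between the libraries. State 6 made up 9.02% of macrophages in Vehicle, 0.977% in Vehicle-OVA, 6.27% in Ribavirin and 0.787% in Ribavirin-OVA. State 4 made up 12.4%, 0.826%, 13.004% and 1.97%, and state 7 made up 5.21%, 0.826%, 11.7% and 0.618%. States with little Cxcl13 were scarce in the OVA libraries as well, with state 2 at 20.9%, 1.35%, 22.1% and 1.91%. The shallow state that read 398 CPM in Vehicle went the other way in the Ribavirin pair, from 4.94% to 16.2%, and state 9 was at 2.50% and 2.08% there. With the levels of Vehicle-OVA in each state but the state mix of Vehicle, the macrophage level would be 94.8 CPM, and with the levels of Vehicle in the mix of Vehicle-OVA it would be 21.4 CPM, against 163.5 and 14.4 CPM measured. In the Ribavirin pair the same figures were 5.36 and 20.8 CPM, against 141.4 and 3.59 CPM. These sums rest on the 0 to 4 Cxcl13-rich cells per state of the OVA libraries, and on states that were drawn from the same cells.

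The Cxcl13-rich cells were higher in part of the C1q resident marker list. Against macrophages without a Cxcl13 UMI, their Folr2 level (a folate receptor) was 6.33-fold in Vehicle (4.49 to 8.72) and 6.74-fold in Ribavirin, and that of the haemoglobin scavenger receptor Cd163 was 3.58-fold and 4.31-fold. Gas6, which bridges dying cells to phagocytes, was 3.44-fold and 3.65-fold, and the transcription factor Maf 2.35-fold and 1.99-fold. Lyve1, another marker of the same list, had 0 UMIs in the 78 rich cells of Vehicle and 361 in the macrophages without Cxcl13. Timd4, also of that list, was 0.796-fold (0.290 to 1.75) and 0.889-fold (0.182 to 2.64). Of the alternatively activated list, Mrc1 was 3.26-fold and 3.55-fold, while Arg1 was 0.190-fold and 0.0193-fold. Fn1 was 0.304-fold and 0.0543-fold. Retnla was 17.5-fold in Vehicle, from 10 UMIs in rich cells, and had 0 in those of Ribavirin.

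Of the inflammatory list, Il1b was 0.39-fold in both libraries and Ly6i 0.335-fold and 0.0317-fold. Cxcl9 of that list went the other way, at 2.33-fold (2.21 to 2.45) and 1.95-fold (1.79 to 2.13). Gbp2 was 1.05-fold and 0.874-fold, Cxcl10 0.875-fold and 0.743-fold, and Nos2 held 1 and 0 UMIs in the rich cells. Some genes were chosen after their values were seen. Ccl8, a monocyte-attracting chemokine, was at 8763 CPM in rich cells and 1167 CPM in the others of Vehicle, and 5872 and 804 CPM in Ribavirin. The lectin Cd209f was 8.80-fold and 51.8-fold, and the adhesion molecule Vcam1 4.17-fold and 3.67-fold. Ltbr, the lymphotoxin receptor, was 0.986-fold (0.699 to 1.35) and 0.899-fold (0.580 to 1.33). The stromal gene Dcn was at 1.70-fold (0.73 to 3.41; 8 UMIs) and 1.39-fold (0.45 to 3.30; 5 UMIs), too few UMIs to set its level in the rich cells. Total depth was higher, with medians of 12013 against 9167 UMIs in Vehicle and 12735.5 against 9642 in Ribavirin. Both profiles compare cells chosen by Cxcl13 itself and are descriptions.

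The OVA library of each pair was compared with its partner as the ratio of CPM values. Cxcl13 in macrophage-like cells had a log2 ratio of -3.50 for Vehicle-OVA over Vehicle (-3.66 to -3.35) and -5.30 for Ribavirin-OVA over Ribavirin (-5.67 to -4.95), while the median of all genes was 0.21 and 0.25. On the log2(CPM + 1) scale, 12.7% of 11640 genes with at least 50 UMIs in the Vehicle pair and 10.3% of 11508 in the Ribavirin pair lay past 2-fold in macrophages. Of the 3 of the 4 genes with that many UMIs, Cxcl13 was past 2-fold in the first pair, and Cxcl13 and Ccr7 in the second. The ratio of the shares of Cxcl13-rich cells was smaller than that of the CPM, at -2.86 and -2.59 in log2. Ribavirin over Vehicle was -0.21 (-0.26 to -0.16), and Ribavirin-OVA over Vehicle-OVA was -2.01 (-2.40 to -1.63), a ratio that rests on 4 and 6 rich cells. Where only cells with under 5% mitochondrial UMIs were kept and clustered anew, the macrophage-like class held 6224 Cxcl13 UMIs in Vehicle, 311 in Vehicle-OVA, 4559 in Ribavirin and 3 in Ribavirin-OVA, and the log2 ratios were -4.21 and -10.08 (-12.4 to -8.53).

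**Figure D4:**
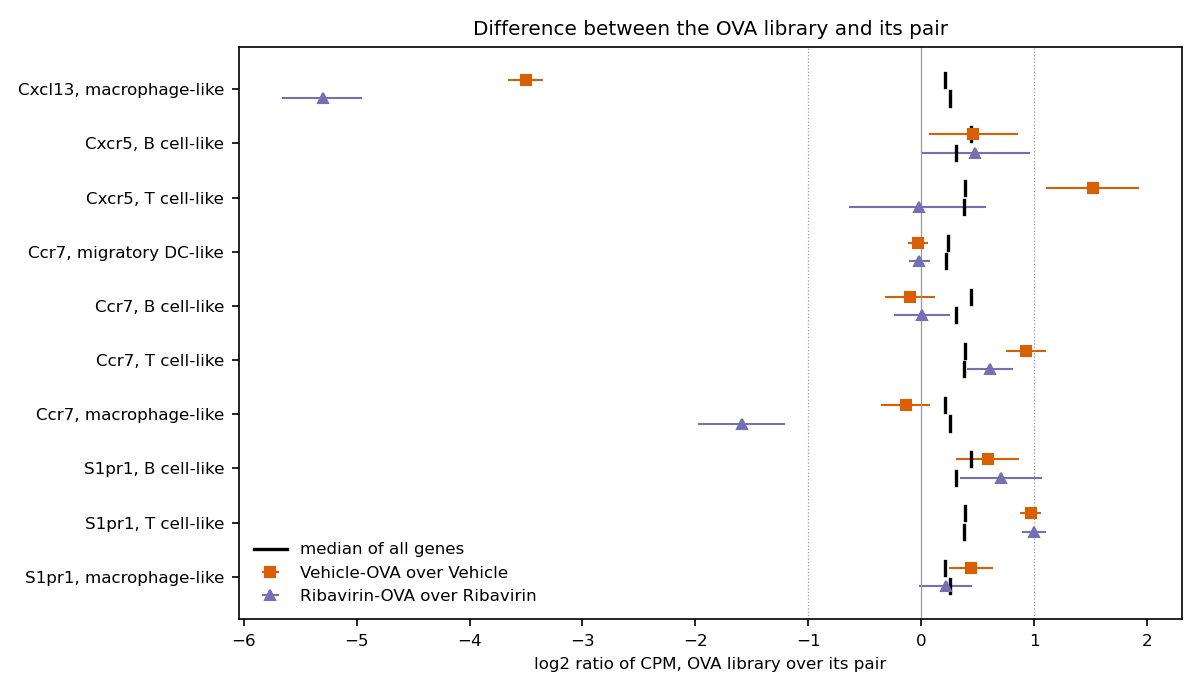
Log2 ratio of CPM, OVA library over its partner without OVA, for the 4 genes in the classes with enough UMIs, with 95% counting intervals; black ticks mark the median of all genes of the class and dotted lines 2-fold. Cxcl13 in macrophages lies at -3.50 and -5.30, far below the tick, and Ccr7 in migratory DC-like cells at -0.02 in both pairs.

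Cxcr5, the receptor of CXCL13, was highest in B cell-like cells in every library. The Cxcr5 level in these cells was 83.3 CPM in Vehicle (67.9 to 101.1; 102 UMIs in 315 cells), 114.6 CPM in Vehicle-OVA (94.8 to 137; 117 UMIs in 248 cells), 61.9 CPM in Ribavirin (49.7 to 76.3; 88 UMIs in 328 cells) and 86.4 CPM in Ribavirin-OVA (66.7 to 110.2; 65 UMIs in 117 cells). The intervals of Vehicle, Vehicle-OVA and Ribavirin-OVA overlapped, and so did those of Vehicle and Ribavirin. A Cxcr5 UMI was seen in 24.1%, 30.6%, 18.0% and 27.4% of these cells at median depths of 3084 to 4328 UMIs, and in 0.282% to 0.452% of neutrophil-like cells. The thinned shares of B cell-like cells were 7.01%, 13.1%, 5.79% and 6.96%.

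In log2, Cxcr5 in B cell-like cells was 0.46 higher in Vehicle-OVA than in Vehicle (0.07 to 0.86; median of all genes 0.44) and 0.48 higher in Ribavirin-OVA than in Ribavirin (-0.004 to 0.96; median 0.31). Past 2-fold in B cell-like cells lay 25.3% of genes in the Vehicle pair and 16.4% in the Ribavirin pair, and 0 of the 3 receptors. Cells taken by UMIs of the markers Cd79a, Cd79b and Ms4a1 gave ratios of 1.69 (1.31 to 2.07) and -0.082 (-0.56 to 0.39). That set was far wider than the B cell-like class. In Vehicle it held 111 Cxcr5 UMIs among 13516898 UMIs, against 102 among 1224819 in the class. In Ribavirin-OVA its total was 7508646 against 751977, so these are not ratios of B cells alone. The B cell-like cells lay in different clusters. Of the 243 cells of cluster 31, 233 came from Vehicle-OVA. Cluster 20 held 309 of the 315 B cell-like cells of Vehicle and 306 of the 328 of Ribavirin. Over all libraries Cxcr5 read 79.4 CPM in cluster 20 and 117.5 CPM in cluster 31. A precursor-like group of 26 cells in the same class, cluster 39, with 675 CPM of the surrogate light chain gene Vpreb1, held 2 Cxcr5 UMIs (7.54 CPM). Vpreb1 was not confined to that group: cluster 20 held 205 Vpreb1 UMIs (66.2 CPM), cluster 39 held 179 and cluster 31 held 1.

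Migratory DC-like cells were next in Vehicle at 12.3 CPM, 6.79-fold below B cell-like cells (3.80 to 13.2). T cell-like cells were next in Vehicle-OVA. Their Cxcr5 level was 3.64 CPM in Vehicle (116 UMIs), 10.4 CPM in Vehicle-OVA (91 UMIs), 3.34 CPM in Ribavirin (78 UMIs) and 3.30 CPM in Ribavirin-OVA (35 UMIs), so that Vehicle-OVA stood apart from the other libraries. The log2 ratio was 1.52 for the Vehicle pair (1.11 to 1.93; median of all genes 0.39) and -0.02 for the Ribavirin pair (-0.64 to 0.58; median 0.38), and the difference between these ratios was not tested. Past 2-fold in T cell-like cells were 16.7% of genes in the Vehicle pair and 12.9% in the Ribavirin pair. Of the 3 receptors, Cxcr5 was past 2-fold in the Vehicle pair on the log2(CPM + 1) scale and 0 were in the Ribavirin pair, where S1pr1 was just under. Cluster 14 held 1468 of the 1592 T cell-like cells of Vehicle-OVA, while clusters 4 and 9 held most of those of Vehicle, so the library and the T cell cluster cannot be told apart. At Leiden resolution 2 the ratio of the Vehicle pair turned to -2.44 (-5.51 to -0.54), with 2 Cxcr5 UMIs left in the T cell-like class of Vehicle-OVA. There, 424 of its T cell-like cells, which held 87 of the 91 UMIs, lay in clusters named ILC2-like. With T cell-like and ILC2-like cells pooled the ratio was 1.50, and with T cells taken by their own marker UMIs 1.59.

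The Cxcr5 of Vehicle-OVA T cells lay in Cd4 cells. Split by UMIs of single cells, those with a Cd4 UMI and none of the markers of the other subsets, among them Foxp3, Cd8a, Cd8b1 and Il17a, read 5.61 CPM in Vehicle, 26.3 in Vehicle-OVA, 4.71 in Ribavirin and 3.80 in Ribavirin-OVA. Their log2 ratio was 2.23 in the Vehicle pair (1.59 to 2.89) and -0.31 in the Ribavirin pair (-1.58 to 0.91). Foxp3 cells, the regulatory T cells, read 12.2, 17.1, 10.9 and 11.96 CPM, with overlapping intervals. Cd8 cells were at 1.40 to 3.05 CPM, near the 0.962 to 1.48 CPM of neutrophil-like cells.

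In the Cd4 cells of Vehicle-OVA, the 27 with a Cxcr5 UMI carried more of the follicular helper genes than the 425 without. Bcl6, the lineage factor of follicular helper cells, was at 161 against 28.6 CPM (5.64-fold, 3.60 to 8.69), and their cytokine Il21 at 166 against 21.7 CPM (7.67-fold, 4.81 to 12.1). Tcf7 was 3.12-fold and Icos 1.62-fold, while Pdcd1 was 1.15-fold (0.82 to 1.58). S1pr1 was lower at 0.61-fold (0.41 to 0.88), and Cd69 at 0.48-fold. The 9 such cells of Ribavirin-OVA read 4.11-fold for Bcl6 and 5.64-fold for Il21, with 10.8-fold for Ccr7 (7.28 to 15.6). Icos was 0.936-fold in those 9 cells (0.717 to 1.20). In Vehicle, from 21 cells, Bcl6 was 2.94-fold (1.05 to 6.70), Il21 1.72-fold (0.201 to 6.58) and Icos 0.695-fold (0.528 to 0.899). In Ribavirin, from 10 cells, Bcl6 was 2.39-fold (0.281 to 9.13), Il21 5.11-fold (0.582 to 20.8) and Icos 1.40-fold (1.02 to 1.88).

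Ccr7 marked the migratory DC-like cells, the matured dendritic cells that leave tissue for lymph nodes, and was not used to name them. The Ccr7 level in these cells was 2859.8 CPM in Vehicle (2759 to 2963; 180 cells), 2813 CPM in Vehicle-OVA (2675 to 2955; 54 cells), 2826 CPM in Ribavirin (2717 to 2938; 106 cells) and 2796 CPM in Ribavirin-OVA (2647 to 2950.1; 49 cells). All intervals overlapped. The log2 ratio was -0.02 in the Vehicle pair (-0.11 to 0.06; median of all genes 0.24) and -0.02 in the Ribavirin pair (-0.11 to 0.08; median 0.22). Of genes in these cells 17.3% and 16.8% lay past 2-fold, and Ccr7, the single member with 50 UMIs, did not. Where cells were picked by migratory DC marker UMIs and not by cluster, the log2 ratios were -0.83 and -1.12. That set was wider than the class, so these are not ratios of the class alone. In Vehicle-OVA it held 1423 Ccr7 UMIs among 1278589 UMIs, against 1568 among 557498 in the class. In Ribavirin-OVA it held 1009 among 1726385, against 1329 among 475374.

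These cells were 0.747%, 0.314%, 0.547% and 0.561% of the kept cells, and held 50.1%, 50.8%, 47.0% and 58.5% of all Ccr7 UMIs. A Ccr7 UMI was seen in 82.8%, 87.04%, 84.9% and 83.7% of them, at median depths of 5733 to 10769 UMIs, and in 0.423% to 0.653% of neutrophil-like cells. The thinned shares ran from 71.1% in Vehicle to 78.8% in Vehicle-OVA. Their median Ccr7 content was 12, 23.5, 16.5 and 12 UMIs per cell.

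B cell-like cells came next, with a Ccr7 level of 320.9 CPM in Vehicle, 299.8 in Vehicle-OVA, 273 in Ribavirin and 275 in Ribavirin-OVA. Their log2 ratios were -0.10 (-0.32 to 0.12) and 0.01 (-0.24 to 0.26), below the medians of all genes given above. In the wider set taken by B cell marker UMIs, which is not B cells alone, the ratios were 1.03 and -0.79. The cDC2-like class, which led with Xcr1 and so holds both kinds of conventional dendritic cell, read 104 CPM in Vehicle, 117 in Vehicle-OVA, 127 in Ribavirin and 59.0 in Ribavirin-OVA. Few of those cells carried it: the 5 highest held 20.02%, 61.1%, 29.5% and 87.6% of the Ccr7 UMIs.

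T cell-like cells read 23.8 CPM of Ccr7 in Vehicle, 45.3 in Vehicle-OVA, 21.2 in Ribavirin and 32.3 in Ribavirin-OVA, with both OVA libraries above both others. The log2 ratio was 0.93 in the Vehicle pair (0.75 to 1.11; median 0.39) and 0.61 in the Ribavirin pair (0.41 to 0.81; median 0.38). The Ribavirin value depended on which cells were called T cells: it was -0.90 under coarser clusters and -0.997 among cells with under 5% mitochondrial UMIs, with the sign turned, and 0.28 where T cells were taken by their own marker UMIs. It was 0.66 without cells that held a UMI of the dendritic gene Fscn1.

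By subset, Cd4 cells read 29.5, 57.0, 23.9 and 60.1 CPM of Ccr7. Foxp3 cells read 62.0, 51.4, 50.2 and 31.3 CPM, and Cd8 cells 27.3, 30.8, 22.7 and 20.8 CPM. The Cd4 ratio was 0.95 in the Vehicle pair (0.62 to 1.28) and 1.33 in the Ribavirin pair (0.94 to 1.74), and 0.87 and 0.36 where T cells were taken by their own marker UMIs. The Foxp3 and Cd8 levels in Ribavirin-OVA were not above those of Ribavirin.

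**Figure D5:**
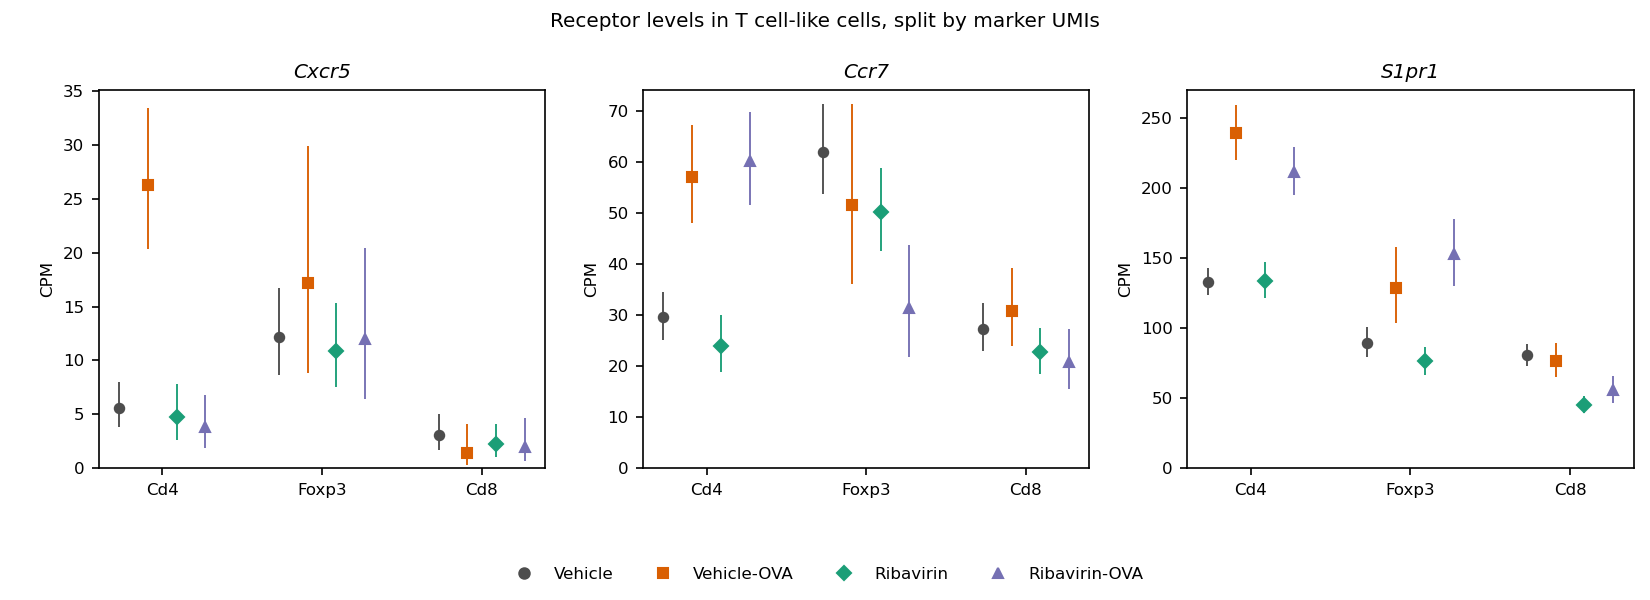
Cxcr5, Ccr7 and S1pr1 levels (CPM, linear axes from 0) in T cell-like cells split by marker UMIs, 1 symbol per library with its 95% Poisson interval. Cxcr5 stands out in the Cd4 cells of Vehicle-OVA at 26.3 CPM, and S1pr1 in Cd4 cells is at 239 and 212 CPM in the OVA libraries against 133 and 134 CPM.

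In innate lymphoid cells the pairs differed in direction: the log2 ratio of Ccr7 was 1.57 in the Vehicle pair (0.87 to 2.31) and -1.97 in the Ribavirin pair (-2.51 to -1.45), and the difference was not tested. The ILC2-like class read 50.6 CPM of Ccr7 in Vehicle (27 UMIs in 11 cells), 150.8 CPM in Vehicle-OVA (49 UMIs in 7 cells), 78.05 CPM in Ribavirin (139 UMIs in 56 cells) and 19.97 CPM in Ribavirin-OVA (41 UMIs in 10 cells). In Vehicle-OVA 95.9% of those UMIs came from 5 cells, with 27 in 1 cell. The migratory DC gene Fscn1 was at 15.005, 61.5, 0 and 3.90 CPM in the class, highest in the library where Ccr7 was highest, from 20 UMIs there. The class was not uniform: Gata3, the factor of type 2 lymphocytes, was at 566, 1012, 275 and 1369 CPM, and the T cell gene Cd3d at 163, 117, 542 and 329 CPM, in library order. Of the other T cell genes, Cd3e was at 45.0, 86.2, 183 and 221 CPM and Cd3g at 223, 259, 526 and 642 CPM. The part of T cells and dendritic cells in the ILC2-like values was not tested.

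Macrophage-like cells held little Ccr7, at 11.7 CPM in Vehicle, 10.7 in Vehicle-OVA, 10.9 in Ribavirin and 3.65 in Ribavirin-OVA, with a log2 ratio of -0.14 in the Vehicle pair (-0.35 to 0.08) and -1.58 in the Ribavirin pair (-1.97 to -1.21). Among cells with under 5% mitochondrial UMIs these were 1.20 and -0.94. The 5 highest cells held 31.4% to 58.8% of these UMIs. NK-like cells read 23.4, 16.6, 19.9 and 8.18 CPM, and neutrophil-like cells 2.08 to 3.24 CPM. The other classes of at least 50 cells, monocyte-like, pDC-like, plasma cell-like, epithelial-like and olfactory neuron-like, lay at or below 6.29 CPM, and the 50 mast cell-like cells of Ribavirin-OVA read 8.09 CPM.

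S1pr1 was spread over lymphocytes. T cell-like cells held 70.3%, 55.5%, 51.7% and 58.4% of its UMIs. Their S1pr1 level was 80.4 CPM in Vehicle (77.3 to 83.6), 157.6 CPM in Vehicle-OVA (149.3 to 166), 65.2 CPM in Ribavirin (62.0 to 68.6) and 130.7 CPM in Ribavirin-OVA (123.9 to 138). Both OVA libraries were above both libraries without OVA, with no overlap of intervals. An S1pr1 UMI was seen in 20.6%, 29.4%, 18.8% and 25.8% of these cells at median depths of 4092.5 to 5188 UMIs, and in 0.578% to 1.11% of neutrophil-like cells. The thinned shares were 7.66%, 14.1%, 6.08% and 11.9%.

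The log2 ratio of S1pr1 in T cell-like cells was 0.97 in the Vehicle pair (0.87 to 1.07; median of all genes 0.39) and 1.00 in the Ribavirin pair (0.90 to 1.11; median 0.38). Under coarser clusters the first was 1.51 and the second -0.21, a turned sign. Within cluster 6, which led with Il17a and held 1970 cells of Ribavirin and 979 of Ribavirin-OVA, S1pr1 was at 50.01 and 158.5 CPM. Within cluster 9, which led with cytotoxic genes such as Nkg7, the 838 cells of Ribavirin read 101 CPM and the 436 of Ribavirin-OVA 110.3 CPM, with overlapping intervals.

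By subset, Cd4 cells read 133 CPM of S1pr1 in Vehicle, 239 in Vehicle-OVA, 134 in Ribavirin and 212 in Ribavirin-OVA. Foxp3 cells read 89.5, 129, 76.3 and 153 CPM. Cd8 cells read 80.4, 76.5, 45.1 and 55.5 CPM, with log2 ratios of -0.07 in the Vehicle pair and 0.30 in the Ribavirin pair. Where T cells were taken by their own marker UMIs and not by cluster, the Cd4 ratio was 0.77 in the Vehicle pair but 0.04 in the Ribavirin pair (-0.14 to 0.21).

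B cell-like cells read 158.4 CPM of S1pr1 in Vehicle (137 to 182), 238 in Vehicle-OVA (209 to 269.97), 99.2 in Ribavirin (83.5 to 117) and 162 in Ribavirin-OVA (135 to 194). The log2 ratio was 0.59 in the Vehicle pair (0.31 to 0.87) and 0.71 in the Ribavirin pair (0.35 to 1.07). In the wider set taken by B cell marker UMIs, which is not B cells alone, the ratios were 1.78 and 0.30. Ribavirin over Vehicle was -0.67 (-0.998 to -0.35) in the B cell-like class. The levels of B and T cell-like cells differed beyond counting error in each library, with B cells 1.51-fold above T cells in Vehicle-OVA (1.31 to 1.73) and 1.24-fold in Ribavirin-OVA (1.02 to 1.50).

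NK-like cells read 49.9, 47.4, 41.2 and 33.9 CPM of S1pr1, with overlapping intervals. ILC2-like cells read 52.5 CPM in Vehicle, 49.2 in Vehicle-OVA, 153 in Ribavirin and 19.5 in Ribavirin-OVA, with Ribavirin highest. Cd3d was also highest in Ribavirin, but the T cell genes Cd3e and Cd3g were highest in Ribavirin-OVA, at 221 and 642 CPM. Cluster 27, with its endothelial genes, read 95.5, 260.3, 240.1 and 313 CPM. S1PR1 is also an endothelial receptor. The cluster lay above B cell-like cells in Ribavirin and Ribavirin-OVA and below them in Vehicle. In Vehicle-OVA its level, from 49 cells, lay within the counting interval of the B cell-like level of 238 CPM.

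Macrophage-like cells were low in S1pr1, at 11.2, 15.2, 11.6 and 13.5 CPM, with log2 ratios of 0.44 (0.24 to 0.63) and 0.22 (-0.02 to 0.45), which were -0.26 and -0.38 among cells with under 5% mitochondrial UMIs. State 4, which also carried Cxcl13, was the exception, at 55.3 CPM in Vehicle, 69.9 in Vehicle-OVA, 62.4 in Ribavirin and 60.1 in Ribavirin-OVA. That was 11.3-fold above the other macrophages in Vehicle (9.37 to 13.5), 4.78-fold in Vehicle-OVA, 13.04-fold in Ribavirin and 4.92-fold in Ribavirin-OVA. Monocyte-like cells read 1.17 to 4.53 CPM, and the pDC-like, cDC2-like, epithelial-like and olfactory neuron-like classes lay at or below 2.08 CPM.

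Single T cells were compared by the receptors they held. T cell-like cells with an S1pr1 UMI read 458 CPM of Klf2 against 113 CPM in those without in Vehicle, 4.07-fold (3.87 to 4.28), and 3.23-fold, 4.82-fold and 5.41-fold in the other libraries in their order. Ccr7 was 2.93-fold, 2.75-fold, 1.91-fold and 2.70-fold. Itgae, an integrin subunit of tissue-resident T cells, was 0.538-fold, 0.348-fold and 0.569-fold in the first 3 of these libraries. Il17a was 0.253-fold in Vehicle and 0.223-fold in Vehicle-OVA.

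Cells with a Cxcr5 UMI carried more Ccr7, from 1.61-fold in Vehicle-OVA (1.02 to 2.43) to 9.29-fold in Ribavirin-OVA (6.91 to 12.3), and less Il17a, at or below 0.183-fold. Their S1pr1 was 1.00-fold in Vehicle (0.765 to 1.29) and 0.765-fold in Vehicle-OVA (0.546 to 1.04), and the intervals of the Ribavirin libraries also spanned 1. These are cells of 1 library compared with each other, not replicates.

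Few UMIs of the CCR7 ligands were counted in the CD45+ cells. Ccl19, counted over 2 gene rows that share the symbol and are near-identical copies, had 65 UMIs in all of Vehicle, 0 in Vehicle-OVA, 38 in Ribavirin and 2 in Ribavirin-OVA. Of the 65, 44 lay in 5 cells of cluster 27, and the migratory DC-like cells held 0 in Vehicle and Vehicle-OVA and 1 in Ribavirin and in Ribavirin-OVA. Ccl21, summed over 6 such rows, had 8, 0, 8 and 186 UMIs, 180 of the last in 1 cell of cluster 27. Cxcl12, the ligand of CXCR4, was highest in cluster 27 at 245, 39.95, 276 and 209 CPM. The sort for CD45 removes most stromal and endothelial cells, so these levels do not describe the mucosa as a whole. How many reads of Ccl19 and Ccl21 went uncounted because they match several near-identical rows was not tested.

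Among the other receptors that position lymphocytes, Cxcr4, a retention receptor in bone marrow and tissue, had log2 ratios of 1.38 and 1.11 in T cell-like cells, 1.36 and 0.49 in B cell-like cells, and 1.03 and 0.98 in macrophage-like cells for the Vehicle and Ribavirin pairs. Gpr183, a receptor for oxysterols, was -0.30 and 0.14 in T cells and -1.19 and -0.82 in macrophages. S1pr4 was -0.41 and -0.34 in T cells and -0.95 and -0.91 in B cells. S1pr5 was at 67.4, 28.4, 58.5 and 36.2 CPM in NK-like cells, where it serves the exit of NK cells from lymphoid organs.

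The recirculation list holds genes of naive and circulating lymphocytes. In T cell-like cells on the log2(CPM + 1) scale, 6 of its 12 members were past 2-fold higher and 0 lower in the Vehicle pair, where 16.7% of all genes were past 2-fold (median 0.92, against 0.39 for all genes), and 5 and 0 in the Ribavirin pair, where 12.9% were (median 0.88, against 0.38). By the CPM ratio, Bach2 was 1.83 and 1.38, Tcf7 1.23 and 1.25, Lef1 0.84 and 0.95, and Klf2 0.80 and 0.60. In B cell-like cells 3 of 11 were higher and 2 lower in the Vehicle pair, beside 25.3% of all genes, with Satb1 at 1.90, Il7r at -2.52 and Lef1 at -2.26, and 5 of 11 were higher in the Ribavirin pair, beside 16.4%. Il7r and Lef1 mark precursor B cells. The 26 precursor-like cells named above came from Vehicle (3), Ribavirin (17) and Ribavirin-OVA (6), and cluster 20 held Vpreb1 UMIs as well. The part of precursor B cells in these ratios was not tested.

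Of 8 follicular helper genes in T cell-like cells, 4 were past 2-fold higher and 0 lower in the Vehicle pair (median 0.99), beside 16.7% of all genes. The list holds Cxcr5 itself, which is 1 of those 4, so the count is not independent of the Cxcr5 result above. In the Ribavirin pair 1 was higher and 0 lower (median 0.71), near the 12.9% of all genes. Il21 was at 1.78 and Pdcd1 at 1.67 in the Vehicle pair by the CPM ratio. Of 7 retention genes with enough UMIs in T cell-like cells, 1 was higher in each pair, Prdm1 in the Vehicle pair and Itga1 in the Ribavirin pair, a count near those same shares, and Cd69 was 0.61 and 0.26. In the same Vehicle pair the dissociation stress list was also higher: 5 of its 13 genes were past 2-fold higher in T cell-like cells (median 0.85), with Zfp36 at 202 CPM without OVA and 756 CPM with it, and 0 in the Ribavirin pair (median 0.17). Its part in the Vehicle pair was not tested.

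In macrophage-like cells, of the genes for S1P synthesis, export and breakdown, 3 of 7 were past 2-fold higher and 0 lower in both pairs, beside 12.7% and 10.3% of all genes. The S1P kinase Sphk1 was at 0.669 and 13.2 CPM in the Vehicle pair, a log2 ratio of 4.30, and at 1.69 and 8.83 CPM in the Ribavirin pair (2.39). Plpp3, which breaks S1P down at the cell surface, had log2 ratios of 2.31 and 2.21. The CXCL12 scavenger Ackr3 was at 0.357 and 5.81 CPM in the Vehicle pair. Of the lymphotoxin list, 1 of 6 and 1 of 5 measured genes were past 2-fold lower, in both pairs the B cell survival factor Tnfsf13b, and 0 were higher, a count close to the 12.7% and 10.3% of all genes. The stress list had 1 higher and 1 lower of 13 in the Vehicle pair and 0 of either in the Ribavirin pair.

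Genes with the most similar pattern were ranked by Pearson r of log2(CPM + 1) over 51 points, the classes of at least 50 cells in each library, which share libraries and depth. For Cxcl13 they were C1qb (r = 0.847), Cd209f (0.838), Marco (0.837), C1qa (0.809) and Ccl12 (0.805), all macrophage genes. For Cxcr5 they were Ccr6 (0.841), Blk (0.797), Fcer2a (0.791), Ffar1 (0.789) and Pax5 (0.788). For Ccr7 they were Relb (0.799), which was a marker used to name migratory DCs, Mif4gd (0.797), Birc2 (0.785), Mir155hg (0.784) and Dph5 (0.780). For S1pr1 they were Tspan32 (0.865), Zcchc11 (0.861), Gimap3 (0.851), Gimap8 (0.849) and BC094916 (0.831). Among the 4 genes, Cxcr5 lay closest to S1pr1 (0.743) and to Ccr7 (0.715), and Cxcl13 lay at -0.178 to its receptor Cxcr5.

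The 4 genes lie on different chromosomes of GRCm38, the same assembly as the mm10 of the submitters' processing notes. Cxcl13 spans chr5:95956951-95961068 on the plus strand with 4 exons. Cxcr5 spans chr9:44511787-44561877, Ccr7 chr11:99144196-99155077 with 3 exons, and S1pr1 chr3:115710433-115715072 with 2 exons, all on the minus strand. Cxcr5 overlaps Bcl9l on the opposite strand.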

How the data were processed

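CD45+ cells of the nasal mucosa were captured with a 10x Chromium 3′ kit, 1 library per group. Per the submitters' processing notes the authors ran Cell Ranger 5.0.0 against mm10, and the deposited matrices hold counts of UMIs per gene and cell, with no normalisation. No sample column other than these 4 libraries was present. Of the genes, 121 share a symbol with another and their rows were summed for Ccl19 and Ccl21.

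Cells with at least 200 genes, 500 UMIs and under 10% mitochondrial UMIs were kept. A doublet caller that simulates doublets marked 6.32%, 1.77%, 4.47% and 0.987% of cells, against 11.3%, 7.66%, 8.56% and 4.12% at an assumed 0.4% per 1000 cells, so doublets remain. The Vehicle-OVA threshold was the median of those of the other libraries. Clustering used 2000 variable genes without the 4 genes of interest, 30 principal components, 15 neighbours and Leiden resolution 1, and macrophages were reclustered at 0.5. Clusters under 20 cells stayed unnamed, and others were named from marker lists by at least 3 detected markers. The naming reference and the doublet threshold were set after an exploratory clustering was seen.

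Counts were summed per class and library and given as CPM with exact Poisson intervals, ratios with exact conditional binomial intervals and shares with exact binomial (Clopper-Pearson) ones, at 95% and for counting error only. UMIs are molecules, but cells of 1 library are not replicates. A gene was past the fold where log2(CPM + 1) differed by over 2-fold with at least 50 UMIs in the pair. A count of 0 was given a limit of 3 counts. For thinned shares each cell was drawn down to 1000 UMIs, leaving out 622, 970, 0 and 510 shallower cells. Library depth was 91742940 to 171873110 UMIs. Statistics were tested on simulated data with 200 changed genes.

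The genes named were the 4 members, a set of ligands, receptors and recirculation genes wherever they held at least 50 UMIs in a class, at most 4 further list genes per class and pair by the size of the log2 ratio, and the 5 genes with the most similar pattern among those with at least 200 UMIs. Genes outside these are said to have been chosen after their values were seen. The members and lists were chosen with earlier results of these data known. Alternatives changed the cell filters, doublet removal, resolution, variable genes, class assignment, averaging and thinning. Some T cell subset and list genes are not reported here. Gene positions are from the GRCm38 annotation. Python 3.11.15, numpy 2.4.6, scipy 1.17.1, pandas 2.3.3, leidenalg 0.10.2, igraph 0.11.9 and matplotlib 3.10.9 were used.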

Additional observations from a re-analysis of the deposited data

Results flagged for a closer look

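Ccr7 in ILC2-like cells was picked out because the pairs went opposite ways. The log2 ratio of CPM was 1.57 for Vehicle-OVA over Vehicle (95% counting interval 0.87 to 2.31; 49 and 27 UMIs) and -1.97 for Ribavirin-OVA over Ribavirin (-2.51 to -1.45; 41 and 139 UMIs). The difference between the pairs was not tested, since each group had 1 library. The UMIs came from 7, 11, 10 and 56 cells, respectively. In Vehicle-OVA, 27 of the 49 UMIs lay in 1 cell. The migratory DC gene Fscn1 was at 15.005, 61.5, 0 and 3.90 CPM in the class, in library order. The T cell gene Cd3d was at 163, 117, 542 and 329 CPM in the class. Cd3e and Cd3g were highest in Ribavirin-OVA, at 221 and 642 CPM. The part of T cells and dendritic cells in the ratios was not tested. No cluster was named ILC2-like when doublets were kept.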

How the results depend on the processing

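Of 180 alternative values, 107 stayed within the counting interval of the reported value, and 157 of the 174 alternative ratios had its sign. In the values below the log2 ratio of the Vehicle pair comes first, and a single value names its pair. Among cells under 5% mitochondrial UMIs, Cxcl13 in macrophage-like cells was -4.21 and -10.08 (3 UMIs in Ribavirin-OVA), Cxcr5 in B cell-like cells 0.017 and 1.10, Ccr7 in T cell-like cells 1.37 and -0.997, and S1pr1 in T cell-like cells 1.42 and 0.66. With at least 1000 UMIs and 500 genes, Ccr7 in T cells was 1.80 and 0.32, and S1pr1 1.16 and Cxcr5 2.60 in the Vehicle pair. With doublets kept, Cxcl13 was -3.32 in the Vehicle pair and Ccr7 in migratory DC-like cells -0.25 and -0.18. At Leiden resolution 0.5, Ccr7 in T cells was 1.96 and -0.90 and S1pr1 1.51 and -0.21, both with the sign turned in the Ribavirin pair, and Cxcr5 in T cells was 2.91 in the Vehicle pair. At resolution 2, Cxcl13 was -3.76 in the Vehicle pair, Ccr7 0.51 and 0.35 in T cells and -0.27 and -0.20 in migratory DCs, S1pr1 0.67 in the Vehicle pair, and Cxcr5 in T cells of that pair -2.44, a reversed sign. With the 4 genes allowed among the variable genes, Ccr7 was 1.69 and -0.41 in T cells and -0.22 and -0.62 in migratory DCs, S1pr1 1.18 and 0.30, and Cxcr5 in T cells 2.50 in the Vehicle pair. With classes from single-cell marker UMIs, Cxcl13 was -3.83 in the Vehicle pair. There, Cxcr5 was 1.69 and -0.082 in the set with B cell markers, which was far wider than the B cell-like class. In the same setting, Ccr7 was 0.28 in T cells of the Ribavirin pair, and S1pr1 0.63 in that pair. Ccr7 was -0.83 and -1.12 in the set with migratory DC markers, which was also wider than its class. The mean of single-cell CPM gave -0.17 for Ccr7 in migratory DCs of the Ribavirin pair. Among alternatives chosen after seeing the data, the share of cells with 10 or more Cxcl13 UMIs gave -2.86 and -2.59, T cell-like with ILC2-like cells gave 0.27 for Ccr7 and 0.66 for S1pr1 in the Ribavirin pair, and Cd4 cells alone gave 0.85 and 0.66 for S1pr1 and 2.23 for Cxcr5 in the Vehicle pair. The state richest in Cxcl13 held 53.9% of macrophage Cxcl13 UMIs, 88.0% at subclustering resolution 0.3 and 31.9% at 1. Without thinning, a UMI was seen in 2.63% of macrophage-like cells for Cxcl13, 24.1% of B cells for Cxcr5, 84.1% of migratory DCs for Ccr7 and 21.8% of T cells for S1pr1. The cause of these shifts was not tested. Migratory DC-like cells were not separated at resolution 0.5, so that no value was had there. No paired analysis was possible because each group had 1 library, and leaving out a replicate was not possible for the same reason. Depth limits Cxcl13 in the OVA libraries, with 368 and 68 UMIs in macrophages.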

Other observations

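Plasma cell-like cells, the antibody-secreting end stage of B cells, held Cxcr5 in the OVA libraries. Their Cxcr5 level was 0.071 CPM in Vehicle (1 UMI in 1256 cells), 6.76 CPM in Vehicle-OVA (4.71 to 9.41; 35 UMIs in 16 of 314 cells), 0.123 CPM in Ribavirin (1 UMI in 588 cells) and 4.12 CPM in Ribavirin-OVA (3.00 to 5.51; 45 UMIs in 21 of 527 cells). Both OVA libraries lay above both others with no overlap of intervals. The median log2 ratio of all genes in this class was 0.52 in the Vehicle pair and 0.54 in the Ribavirin pair. Cxcr5 held under 50 UMIs in each pair, too few for it to be counted among genes past 2-fold. Cluster 12, with 1236 of its 1836 cells from Vehicle and 580 from Ribavirin, held 0 Cxcr5 UMIs. Cluster 24, with 513 of 546 cells from Ribavirin-OVA, read 6.20 CPM, and cluster 30, with 290 of 303 from Vehicle-OVA, read 2.26 CPM, both mostly of 1 library. Of the 35 UMIs of Vehicle-OVA, 25 lay in its 18 cells of cluster 24 and 10 in its 290 cells of cluster 30, so that 18 of 314 cells carried most of its level. All 45 UMIs of Ribavirin-OVA lay in cluster 24.

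The B cell clusters also differed in genes of mature follicular and marginal zone B cells. Cluster 31, nearly all from Vehicle-OVA, read 301.3 CPM of Fcer2a, which encodes CD23, and 379 CPM of the complement receptor Cr2, against 119.4 and 70.7 CPM in cluster 20. S1pr1 was at 222.7 and 149.5 CPM in these clusters, while Ccr7 was at 307 and 308.3 CPM. The precursor gene Vpreb1 was at 0.948 CPM in cluster 31 and 66.2 CPM in cluster 20. These genes were chosen after their values were seen, and no test was made.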
